A study of Rattus norvegicus with 44 samples.

Results

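The nuclear-encoded respiratory chain was measured with 97 probe sets of 87 genes, out of 20826 probe sets of 14217 genes that name 1 gene on the array. Members were chosen by symbol: the Nduf, Uqcr, Cox4 to Cox8 and Atp5 families, together with Sdha, Sdhb, Sdhc, Sdhd and Cyc1. The rule uses symbols and no measured value, although it was set with earlier results of these data known. The cells were H4-II-E-C3, an established line from a rat hepatoma, kept for 24 h in serum-free medium with or without a metal salt. Nickel was given as NiCl2 at 40, 140 and 400 µM, chromium as Na2Cr2O7 at 0.275, 1 and 10 µM, and cadmium as CdCl2 at 1.2, 0.55 and 0.2 µM. The study had set the 3 concentrations of each metal from a viability assay, at no effect and at 2 rising levels of effect. Each exposure had 4 arrays and the unexposed controls had 8, in 4 biological replicates with 2 control arrays each. All values are on the log2 scale of the deposited intensities, and all groups come from a single cell line.

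Complexes I to IV of the inner mitochondrial membrane pass electrons from NADH and succinate to oxygen. Complexes I, III and IV also pump protons, and complex V uses the proton gradient to make ATP. A few subunits of complexes I, III, IV and V are encoded by mitochondrial DNA, and the rest, with all of complex II, are encoded in the nucleus and imported. Assembly factors build the complexes without remaining in the finished enzyme. Nickel can stabilise the hypoxia-inducible factor, which in many cells lowers mitochondrial respiration, and cadmium and chromium are known for oxidative stress.

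Conditions were assigned to arrays by a fixed rule on order, because the sample labels conflict with the study's own summary. The titles were listed in series order, the 4 titles that name a repeated array were moved to the end, and titles were matched to value columns in turn. With this order, the mean differences from controls matched the supplementary table of the study for 992 probe sets in 9 conditions to within 7.5e-06 on the log2 scale. With the labels as given, the median discrepancy was 0.164 and the largest was 4.32. That table was made from the same arrays, so the match checks the assignment of conditions and is not independent evidence of any change. Label and order gave the same condition for 22 of 44 arrays. These included 11 of 11 labelled replicate 1 and 9 of 11 labelled replicate 2, but 1 of 11 in each of the others. With conditions taken as labelled, no member passed the test at any high concentration, and 0% of all probe sets tested did. The main results therefore rest on the order, and results for nickel and chromium are also given for replicates 1 and 2 alone, in which label and order coincide for these metals.

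The 4 repeated arrays stood apart. They were those of 140 µM nickel replicate 4, 400 µM nickel replicate 4, 0.275 µM chromium replicate 4 and 0.55 µM cadmium replicate 2. By the methods, an array that failed the quality criteria was replaced by a new one from the same total RNA. In each of the 4, respiratory chain members lay above the other 3 replicates of their condition more often than probe sets in general. The difference from the same replicate's controls exceeded the other 3 for 76 of 85 members on the repeated 400 µM nickel array, against 33.1% of all probe sets tested. It did so for 63 of 85 on the 0.55 µM cadmium array (41.6% of all), for 53 of 85 on the 0.275 µM chromium array (35.5%) and for 51 of 85 on the 140 µM nickel array (31.5%). The part of the repeated processing in this was not tested. Counts of members are therefore given with and without these arrays where they were called, and so are single members and lists whose call or balance changes.

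The cells carried the markers of their labelled origin. Alb was between 14.38 and 14.62 in control arrays, and Ttr, Apob, Fgb, Serpina1, Hnf4a and Afp also passed the filter on mean level used for the tests (5.96). Apoa1 (5.08 to 5.71) did not. All 10 markers read for leukocytes, endothelium, fibroblasts and bile duct were under that filter on their mean. The fibroblast gene Col3a1 exceeded it on some arrays (5.23 to 7.27 in controls and 4.80 to 6.98 in exposed arrays), and its part in the results was not tested. Examples of the others were Ptprc between 4.32 and 5.00 and Krt19 between 3.99 and 4.62 over exposed arrays. Array medians lay between 5.931 and 5.9954, and pairs of arrays correlated between 0.961 and 0.997. In RNA from whole cultures, fewer cells and less RNA per cell cannot be told apart, and RMA sets each value relative to the rest of the array.

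Of the 97 probe sets, 85 (80 genes) passed the filter on mean level. The 12 others were 5 additional probe sets of Ndufa9, Atp5if1, Atp5me and Atp5po and 7 genes read by no other probe set, Cox4i2, Cox6a2, Cox6b2, Cox7a1, Cox7b2, Cox8b and Ndufa4l2. These 7 are known as isoforms of heart and muscle, testis, lung or low oxygen. In a fit without the filter, Ndufa4l2, a known target of the hypoxia-inducible factor, differed by 0.11 ± 0.08 (SE) at 400 µM nickel (limma, adjusted p = 0.38), and Cox4i2, the isoform linked to low oxygen, by -0.11 ± 0.09 (adjusted p = 0.46).

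The promoters shown are those of the members called under all 3 metals with all arrays (Ndufaf4, Ndufa5 and Ndufb2). The others are those of the largest fall under nickel (Ndufv1) and the largest rise under cadmium (Ndufaf8), also with all arrays. They are shown because the members share control by nuclear respiratory factors as textbook background. RefSeq windows (build GRCr8) from 250 bases before to 50 bases after the annotated start were matched for 78 of 87 genes. The sequences are 5′ to 3′ on the gene's strand, and capitals mark the motifs searched on both strands: GCGCA and GCGC with any 1 base between them (NRF1), CCGGAAG (GABP), CACGTG (E-box) and ACGTG (the core of a hypoxia response element, contained in the E-box).
Ndufaf4, chr5:43401545-43401844, plus strand: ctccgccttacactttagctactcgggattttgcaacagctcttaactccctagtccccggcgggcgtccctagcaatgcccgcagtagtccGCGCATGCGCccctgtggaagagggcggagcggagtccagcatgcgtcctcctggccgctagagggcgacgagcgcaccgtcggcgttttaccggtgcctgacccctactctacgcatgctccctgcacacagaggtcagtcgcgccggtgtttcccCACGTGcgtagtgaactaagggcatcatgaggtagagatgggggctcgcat
Ndufa5, chr4:53971186-53971485, minus strand: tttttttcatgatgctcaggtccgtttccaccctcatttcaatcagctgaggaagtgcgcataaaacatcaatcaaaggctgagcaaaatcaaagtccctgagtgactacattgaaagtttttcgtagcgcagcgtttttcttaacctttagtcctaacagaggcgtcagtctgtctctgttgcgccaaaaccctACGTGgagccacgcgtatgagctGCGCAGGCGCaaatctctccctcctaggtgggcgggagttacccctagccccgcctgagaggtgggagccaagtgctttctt
Ndufaf8, chr10:105879658-105879957, plus strand: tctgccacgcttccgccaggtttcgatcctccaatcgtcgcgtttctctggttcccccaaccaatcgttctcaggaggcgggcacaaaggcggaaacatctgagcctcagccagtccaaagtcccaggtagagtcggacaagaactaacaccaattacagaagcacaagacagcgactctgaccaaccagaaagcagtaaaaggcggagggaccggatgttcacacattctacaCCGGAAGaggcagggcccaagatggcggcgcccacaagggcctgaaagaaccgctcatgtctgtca
Ndufb2, chr4:69334057-69334356, plus strand: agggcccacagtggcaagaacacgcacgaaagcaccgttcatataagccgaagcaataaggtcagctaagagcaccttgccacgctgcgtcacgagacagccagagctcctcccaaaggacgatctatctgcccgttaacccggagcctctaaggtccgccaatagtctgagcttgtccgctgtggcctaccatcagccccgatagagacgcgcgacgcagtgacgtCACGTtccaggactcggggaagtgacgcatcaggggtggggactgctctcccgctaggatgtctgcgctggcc
Ndufv1, chr1:210734842-210735141, minus strand: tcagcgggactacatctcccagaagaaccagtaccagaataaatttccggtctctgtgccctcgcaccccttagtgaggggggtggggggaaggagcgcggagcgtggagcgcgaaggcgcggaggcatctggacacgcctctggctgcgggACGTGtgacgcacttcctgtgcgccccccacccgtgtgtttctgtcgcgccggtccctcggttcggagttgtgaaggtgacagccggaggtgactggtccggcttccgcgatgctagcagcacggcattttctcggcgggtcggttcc

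The NRF1 letters began at position -158 in Ndufaf4 and at -32 in Ndufa5, counted from the start site, and the GABP letters at -16 in Ndufaf8. Over all members matched, the NRF1 motif was in 19.2% of promoters, against 4.71% of the 27457 promoters in the table, and the GABP motif in 28.2% against 9.22%. The E-box was in 7.69% of member promoters and 6.65% of all, and ACGTG in 25.6% and 19.7%. A match is a description of these windows, not a site or a cause.

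By the call of the methods (false discovery rate of at most 0.001 over concentrations and a change of at least 1.8-fold), 0 of 85 members were called for nickel, chromium or cadmium, against 1.95%, 2.64% and 1.5% of all probe sets tested. No tested member reached 1.8-fold at any concentration. Changes were therefore read at each concentration by limma with an adjusted p under 0.05 and no fold limit.

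At 400 µM nickel, genes of all 5 complexes fell. The number called was 36 of 85 members, 5 higher and 31 lower, against 40.1% of all probe sets in either direction, 23.4% higher and 16.7% lower. The members were thus called about as often as other probe sets, but mostly downwards. For 8 members all 4 nickel values lay below all 4 control values and for 2 they lay above, against 8.81% and 13.6% of all probe sets. The median member changed by -0.167, against 0.015 for all probe sets. Complex I had 13 lower and 2 higher of 36 (median -0.19), complex II 2 lower of 5 (-0.243), complex III 2 lower of 9 (-0.138), complex IV 5 lower and 1 higher of 11 (-0.163) and complex V 8 lower of 16 (-0.212). Without the repeated arrays, 65 members were called, 3 higher and 62 lower (background 46.7%, of which 20.7% lower), and 34 of the original 36 were among them. The median was then -0.25, and the lower calls were 28 of 36 in complex I, 5 of 5 in complex II, 5 of 9 in complex III, 7 of 11 in complex IV and 14 of 16 in complex V. In replicates 1 and 2 alone, 65 were also called, 3 higher and 62 lower, with a background of 48.7%.

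**Figure D1:**
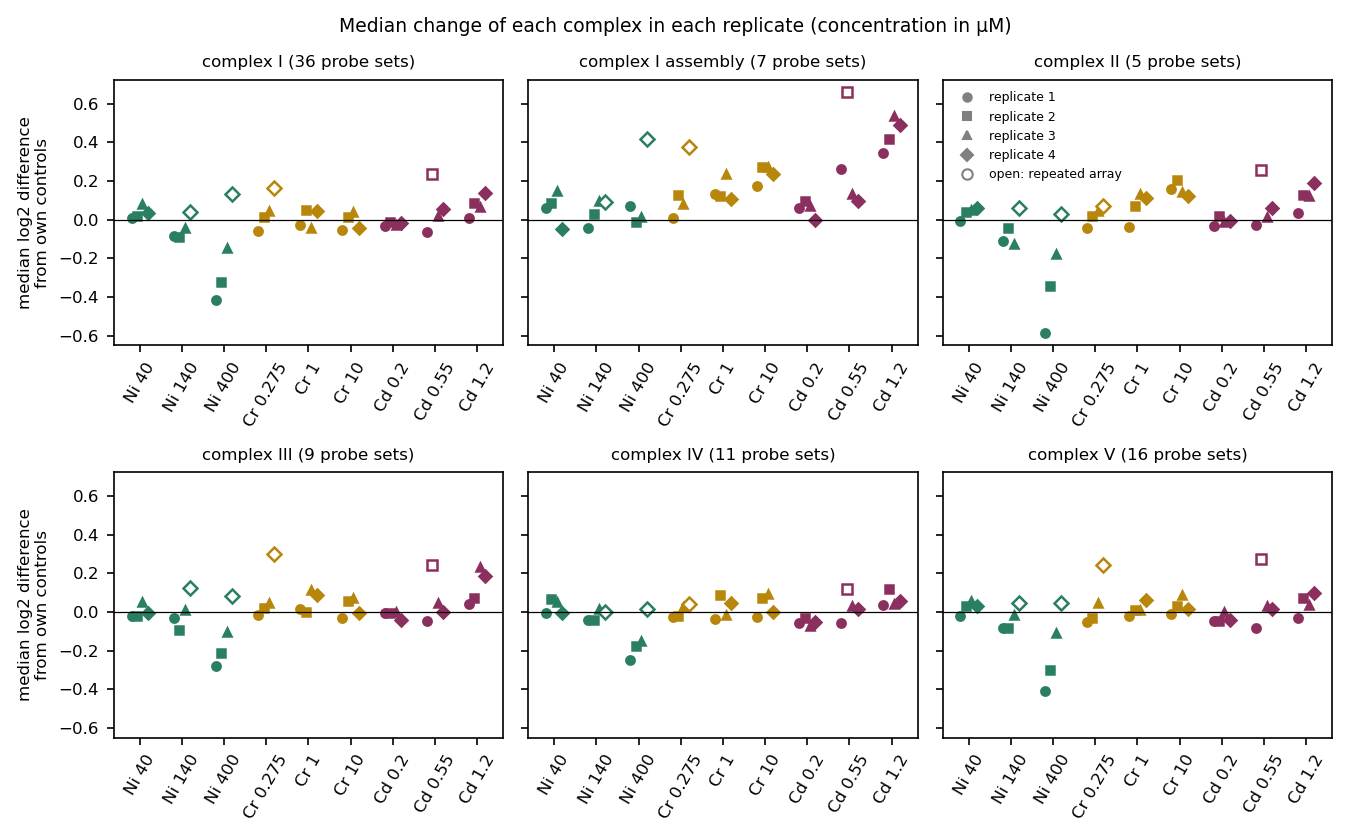
Median log2 difference from the same replicate's controls over the tested probe sets of each complex (vertical axis) for the 9 exposures (horizontal axis, µM), with 1 point per replicate and open symbols for the 4 repeated arrays. At 400 µM nickel the complex I medians were -0.414, -0.324, -0.146 and 0.132 in replicates 1 to 4, and the repeated array was the highest of the 4 in each panel.

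The replicates of 400 µM nickel differed widely. The complex I median was -0.414, -0.324, -0.146 and 0.132 in replicates 1 to 4, and the complex V median -0.407, -0.299, -0.109 and 0.048. In each of the 5 complexes the median was below the controls in the first 3 replicates and above them on the repeated array of replicate 4. Leaving out replicates 1, 2, 3 and 4 in turn left 12, 11, 23 and 60 members called, against 26.4%, 23.5%, 35.9% and 42.4% of all probe sets. Without replicate 1, 2 or 3, members were thus called less often than other probe sets, and without replicate 4 more often. The lower calls outnumbered the higher in each case, at 9, 8, 20 and 58 against 3, 3, 3 and 2. The median of 7 tested hypoxia-linked mitochondrial genes, led by Pdk1, was 1.26, 1.26, 1.14 and 1.05 in replicates 1 to 4. The source of the spread between replicates was not tested.

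With all arrays, the largest fall was in a subunit at the NADH end of complex I. Ndufv1, the flavoprotein subunit that binds NADH, was at 10.84, 10.69, 10.63 and 10.68 in control replicates 1 to 4 and at 10.00, 10.11, 10.32 and 10.42 at 400 µM nickel. All 4 nickel values were below all 4 control values, and the change was -0.50 ± 0.09 (SE, adjusted p = 0.0007), so that the level fell by 29.2%. Leaving out the repeated arrays gave -0.57 ± 0.09, and the largest fall in complex I was then -0.62, in another subunit. The other nickel concentrations left Ndufv1 uncalled.

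Ndufs1, the large iron-sulfur subunit of the same arm, was at 11.14, 11.02, 10.87 and 10.94 in controls and at 10.49, 10.52, 10.66 and 10.80 at 400 µM nickel. The groups did not overlap, and the change was -0.38 ± 0.08 (adjusted p = 0.0033), or -0.46 without the repeated arrays. Of 7 subunits that carry iron-sulfur clusters (Ndufv1, Ndufv2, Ndufs1, Ndufs7, Ndufs8, Sdhb and Uqcrfs1, a group set after values were seen), 3 fell and 0 rose, against 16.7% and 23.4% of all probe sets. All 7 fell when the repeated arrays were left out (20.7% of all probe sets). Of all members, 31 of 85 were called lower with all arrays and 62 of 85 without the repeated ones.

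Among accessory subunits of complex I, Ndufb2 was at 11.48, 11.51, 11.60 and 11.74 in controls and at 10.66, 10.84, 11.27 and 11.68 with 400 µM nickel. The repeated array lay within the control range and the other 3 below it. The change was -0.47 ± 0.11 (adjusted p = 0.0056) and lost its call without replicate 2 (-0.40, adjusted p = 0.068). Ndufa2 ranged from 9.17 in replicate 1 to 10.18 in replicate 4 against 10.00 to 10.16 in controls, and its call at -0.43 ± 0.11 (adjusted p = 0.0088) was lost without replicate 1 (-0.28, adjusted p = 0.062) or 2 (-0.40, adjusted p = 0.08). Ndufa6 was lower in all 4 replicates with no overlap (10.15 to 10.76 against 10.77 to 10.97), at -0.43 ± 0.09 (adjusted p = 0.0017).

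Ndufs4 and Ndufa5 were the 2 complex I subunits called higher at 400 µM nickel, at 0.26 ± 0.09 (adjusted p = 0.035) and 0.24 ± 0.09 (adjusted p = 0.049). Both calls were lost without the repeated arrays (adjusted p = 0.084 and 0.095). Ndufs4 was also lost without replicate 1 (adjusted p = 0.067), 3 (0.16) or 4 (0.13), and Ndufa5 without replicate 1 (0.18), 2 (0.17) or 4 (0.1).

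In complex II, Sdha, the flavoprotein that oxidises succinate, was at 10.36, 10.21, 10.23 and 10.14 in controls and at 9.73, 9.77, 10.02 and 10.13 at 400 µM nickel. Replicate 4 fell just under the lowest control, and the change was -0.33 ± 0.09 (adjusted p = 0.013). Sdhd, a membrane anchor, changed by -0.31 ± 0.09 (adjusted p = 0.013), from 10.22 to 10.35 in controls to 9.75, 9.77, 10.18 and 10.31. Without replicate 1 the adjusted p was 0.12 for both, and without replicate 2 it was 0.1 for Sdha and 0.11 for Sdhd. A second probe set of Sdhd was not called (-0.24, adjusted p = 0.089). Sdhb (-0.16 ± 0.06) and Sdhc (-0.06 ± 0.08) were not called, and both were called lower without the repeated arrays.

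In complex III, Cyc1, the cytochrome c1 that hands electrons to cytochrome c, was at 11.16, 11.10, 11.05 and 11.17 in controls and at 10.60, 10.65, 10.75 and 11.07 at 400 µM nickel. Only the repeated array touched the control range. The change was -0.35 ± 0.07 (adjusted p = 0.0021) and kept its call without each replicate in turn. Uqcr10 fell by 0.25 on the log2 scale, a call lost without replicate 1 (adjusted p = 0.064) or 2 (0.11). Uqcrfs1, the Rieske iron-sulfur protein (-0.12 ± 0.06), and Uqcrc1, a core subunit (-0.14, adjusted p = 0.059), were not called, and Uqcrfs1 was called lower without the repeated arrays (-0.16, adjusted p = 0.037).

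Ndufa4, which despite its name is found with complex IV, fell by 0.31 on the log2 scale (adjusted p = 0.0015). The structural subunits Cox8a (-0.22), Cox6c (-0.18), Cox6a1 (-0.17) and Cox5b (-0.17) also fell, with adjusted p from 0.012 to 0.041. Cox5b had a control mean of 12.06 ± 0.07 (SD, n = 4) and was at 11.79, 11.82, 11.88 and 12.06 at 400 µM nickel, the last within the control range, and its call was lost without replicate 1, 2 or 3 (adjusted p = 0.17, 0.13 and 0.074). Cox6a1 was lost without the same replicates (0.11, 0.13 and 0.065) Cox8a without replicate 1 (0.1) or 2 (0.087), and Cox6c without replicate 1, 2 or 3 (0.25, 0.21 and 0.11). Cox7a2l, which helps join complexes III and IV into supercomplexes, rose by 0.22 ± 0.06 with no overlap (adjusted p = 0.01). That call was lost without replicate 2, 3 or 4 (adjusted p = 0.052, 0.062 and 0.051). Cox4i1, the main subunit 4 isoform, was at -0.08 ± 0.07 (adjusted p = 0.34), and at -0.16 (adjusted p = 0.034) without the repeated arrays. The probe set that names Cox5a alone was not called under nickel (0.06 ± 0.08), chromium (0.15 ± 0.13) or cadmium (0.20 ± 0.11). It was dimmer (mean 7.16) than a probe set that names Cox5a together with another gene (12.41). That probe set, which is not a member, was called under cadmium alone (0.17 ± 0.05, adjusted p = 0.021).

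In complex V, the catalytic subunit Atp5f1b was at 13.24, 13.25, 13.33 and 13.31 in controls and at 12.78, 12.93, 13.16 and 12.87 at 400 µM nickel. Atp5mc3, which encodes the c-ring subunit, was at 12.89, 12.87, 12.96 and 12.82 in controls and at 12.51, 12.49, 12.58 and 12.58. Neither pair of groups overlapped, and replicate 4 stood with the other nickel arrays. The changes were -0.35 ± 0.06 (adjusted p = 0.00076) and -0.35 ± 0.05 (adjusted p = 0.00028). Atp5f1a, the other main F1 subunit, changed by -0.29 ± 0.10 (adjusted p = 0.027), a call lost without replicate 1 (0.21) or 2 (0.17). Of the 36 nickel calls, 10 held without each replicate in turn, without the repeated arrays and without the replicate term: Ndufv1, Ndufs1, Ndufa6, Ndufb8, Cyc1, Ndufa4, Atp5f1b and Atp5mc3, lower, and Ndufaf3 and Ndufaf4, higher.

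The middle and low nickel concentrations gave 0 of 85 members called, against 3.29% of all probe sets at 140 µM and 0% at 40 µM. At an unadjusted p under 0.05 there were 5 members at 140 µM and 2 at 40 µM (background 18.7% and 3.85%). Complex I had a median of -0.059 at 140 µM, with 25 of 36 below 0, and -0.094 without the repeated arrays. Over all probe sets tested the median was 0.017, with 7005 of 15521 below 0. None of the complex I changes was called.

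**Figure D2:**
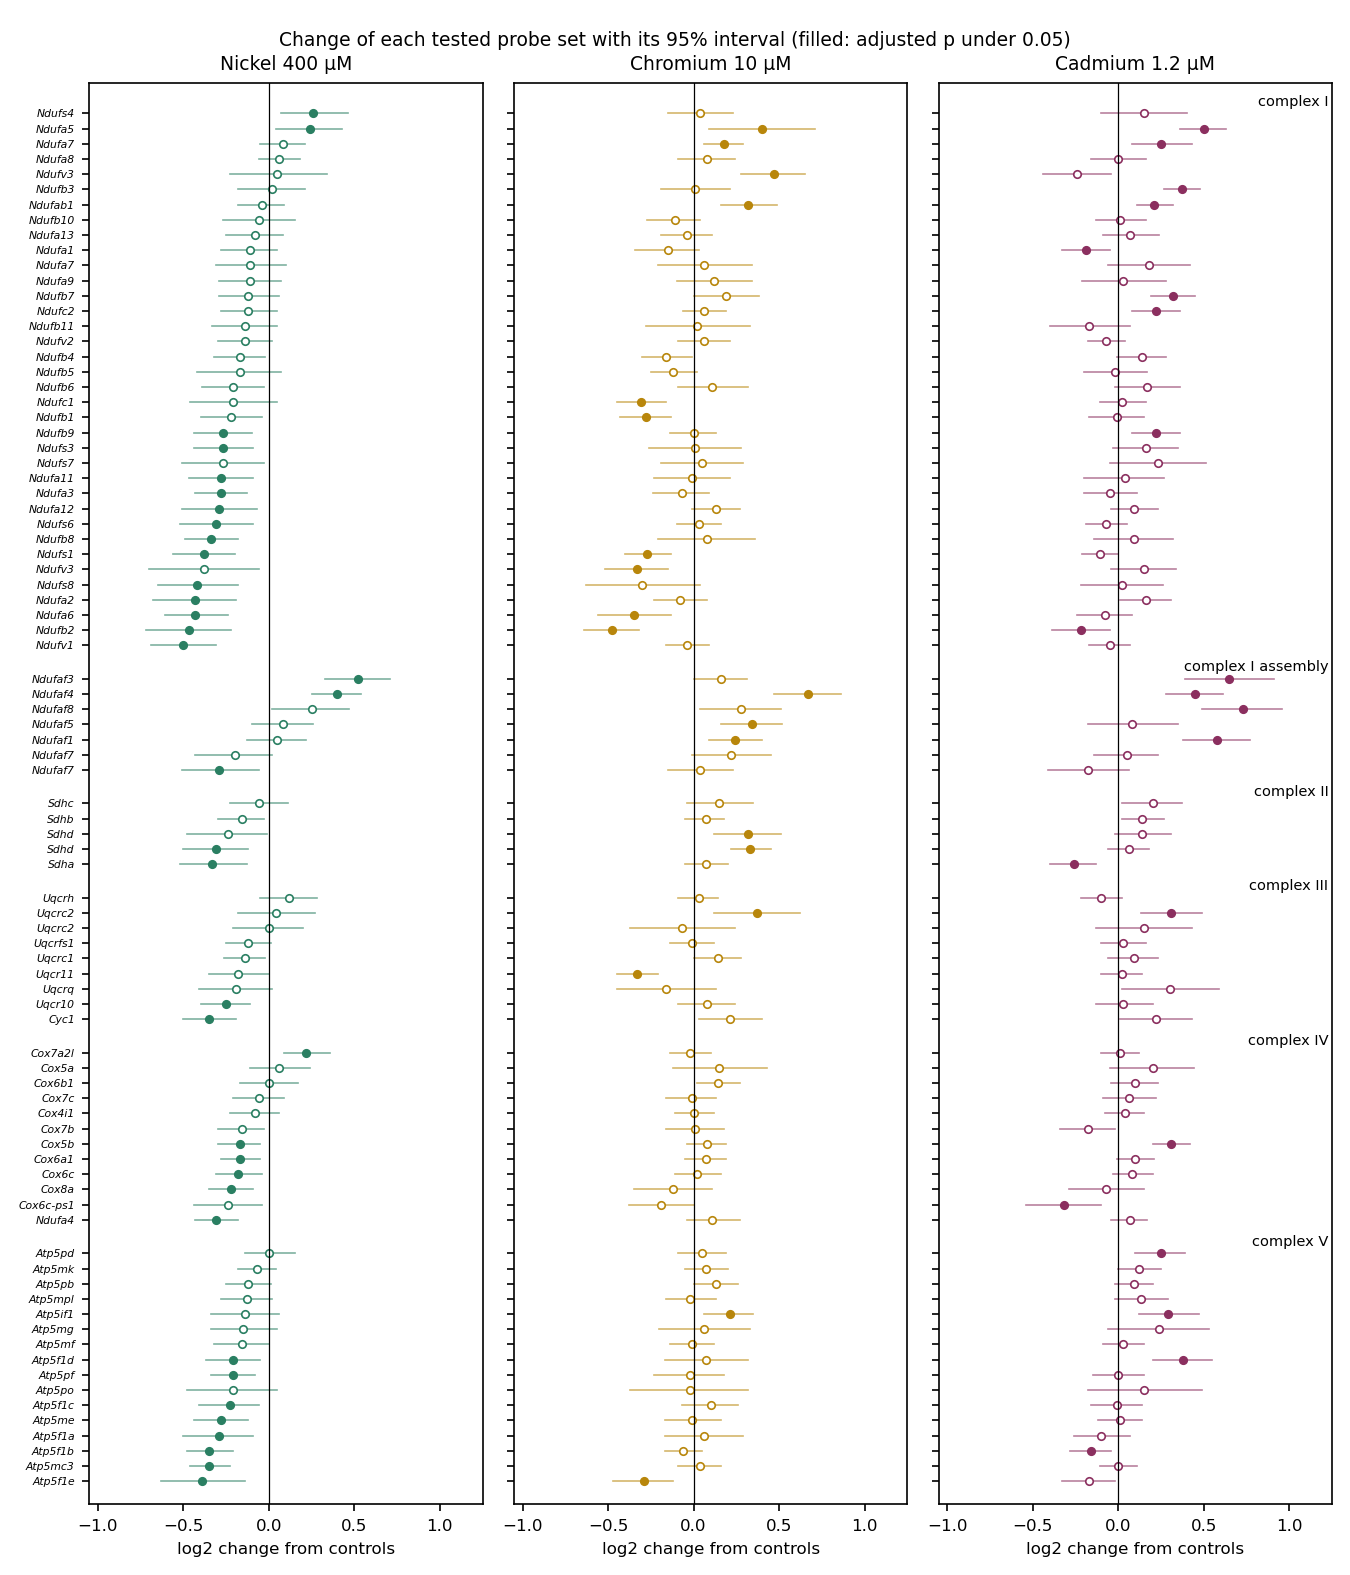
Log2 change from controls (horizontal axis) with its 95% interval for each of the 85 tested probe sets, by complex and ordered by the nickel value, at 400 µM nickel, 10 µM chromium and 1.2 µM cadmium, with filled points for an adjusted p under 0.05. Nickel points lie mostly left of 0 (68 of 85), whereas the assembly factors of complex I lie mostly right of it under chromium (7 of 7) and cadmium (6 of 7).

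At 400 µM nickel, 2 of 7 probe sets were higher and 1 lower, with a median of 0.084. These counts of assembly factors were close to the background of 23.4% higher and 16.7% lower, and without the repeated arrays 2 were higher and 2 lower. Ndufaf3, an early assembly factor, was at 8.18, 8.02, 7.87 and 8.03 in controls and at 8.56, 8.41, 8.40 and 8.81 at 400 µM nickel. Every nickel value was above every control value, at 0.52 ± 0.09, a rise of 43.2% (adjusted p = 0.00056), and at 0.41 without the repeated arrays. Ndufaf4, its partner in the same step, was at 9.60, 9.42, 9.33 and 9.35 in controls and at 10.12, 9.85, 9.54 and 9.77, higher in all 4 replicates by 0.40 ± 0.07 (adjusted p = 0.00054). Replicate 3 lay within the control range, below control replicate 1. A probe set of Ndufaf7, a methyltransferase that acts on a complex I subunit, was lower (-0.29, adjusted p = 0.04), a call lost without replicate 1 (0.2) or 2 (0.21), and a second was not called (-0.20, adjusted p = 0.13).

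At 10 µM chromium, members were called less often than probe sets in general, and in both directions. The count was 19 of 85, 11 higher and 8 lower, against a background of 42.5% (23% higher and 19.5% lower), and the median was 0.04 against 0.014. For 8 members all 4 values lay below the controls and for 10 above, against 16% and 20.2% of all probe sets. Without the repeated arrays it was 27, 17 higher and 10 lower (background 51.7%, 28% higher and 23.8% lower). In replicates 1 and 2 alone it was 15, 7 higher and 8 lower (background 34.9%, 18.7% higher and 16.2% lower). Without replicate 1 it was 12 (background 33.2%). Complex I had 4 higher and 6 lower of 36, complex II 2 higher of 5, complex III 1 and 1 of 9, complex IV 0 of 11 and complex V 1 and 1 of 16. Without the repeated arrays, complex I had 4 higher and 8 lower, complex II 3 and 0, and complex III 3 and 1. Complex IV then had 1 and 0, and complex V 1 and 1. The assembly factors of complex I had 3 higher and 0 lower of 7, with a median of 0.243 and with replicate medians between 0.176 and 0.275. They had 5 higher and 0 lower without the repeated arrays.

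Ndufaf4 rose most under chromium. It was at 10.07, 9.98, 10.17 and 10.14 at 10 µM, above all controls (9.33 to 9.60), and the rise of 0.67 ± 0.09 was 58.6% (adjusted p = 7.4e-05). Ndufaf5, which modifies a complex I subunit during assembly, rose by 0.34 ± 0.08 (adjusted p = 0.0046). Ndufaf1, a factor of the membrane arm, rose by 0.24 ± 0.07 (adjusted p = 0.015) but not past the threshold without replicate 1, 2 or 3 (adjusted p = 0.052, 0.11 and 0.076).

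Ndufb2 had the largest fall, at 10.97, 11.11, 11.19 and 11.13 at 10 µM chromium against 11.48 to 11.74 in controls. The groups did not overlap, and the change was -0.48 ± 0.07 (adjusted p = 0.00017). Ndufa6 changed by -0.35 ± 0.10 (adjusted p = 0.012), with adjusted p = 0.085 without replicate 1. Uqcr11, a small subunit of complex III, changed by -0.33 ± 0.06 (adjusted p = 0.00043). The 2 probe sets of Ndufv3 disagreed: the brighter was lower (-0.33, adjusted p = 0.0058) and the other higher (0.47, adjusted p = 0.00064), so no direction is given for the gene.

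Sdhd moved the other way from nickel. At 10 µM chromium it was at 10.60, 10.48, 10.74 and 10.75 against 10.34, 10.22, 10.35 and 10.33 in controls. The groups did not overlap, the rise was 0.33 ± 0.05 (adjusted p = 0.00025), and a second probe set gave 0.32 ± 0.09 (adjusted p = 0.011). Ndufa5 rose by 0.40 ± 0.14 (adjusted p = 0.039) with values from 7.90 to 8.58, an overlap with the controls (7.89 to 7.98), and it was not called in replicates 1 and 2 alone (0.17) or without replicate 1, 3 or 4 (adjusted p = 0.11, 0.21 and 0.058). At 1 and 0.275 µM chromium 0 members were called, against 0.0515% and 0% of all probe sets. At an unadjusted p under 0.05 there were 2 and 5 (background 8.25% and 9.29%).

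At 1.2 µM cadmium the assembly factors of complex I had the highest median of the member classes. Of all members 21 of 85 were called, 16 higher and 5 lower, against a background of 37.8% (23.8% higher and 14% lower), and the median was 0.083 against 0.035. For 3 members all 4 values lay below the controls and for 18 above, against 11.2% and 19% of all probe sets. Centring each array on its median changed this split to 12 higher and 11 lower. Without the repeated arrays it was 42, 31 higher and 11 lower (background 51%, 31.1% higher and 19.9% lower). Without replicates 2, 3 and 4 it was 36, 12 and 12, with backgrounds of 45.7%, 21.9% and 26.3%, which moved with it. Of the 7 assembly factor probe sets 4 were higher, with a median of 0.448 and replicate medians of 0.345, 0.419, 0.536 and 0.491. Among them 4 were higher and 1 lower without the repeated arrays. Only replicate 1 carries the cadmium labels without conflict at the middle and high concentrations.

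Ndufaf8, a partner of Ndufaf5, was at 7.60, 7.40, 7.49 and 7.74 in controls and at 8.07, 8.08, 8.42 and 8.57 at 1.2 µM cadmium. All 4 exposed values lay above all controls, at 0.73 ± 0.11 or 65.4% (adjusted p = 0.0002). Ndufaf3 was at 8.71, 8.76, 8.54 and 8.70, a rise of 0.65 ± 0.12 (adjusted p = 0.00095). Ndufaf1 was at 7.18, 7.06, 6.88 and 7.01 against 6.74, 6.43, 6.28 and 6.36 in controls, a rise of 0.58 ± 0.09 (adjusted p = 0.00023). Ndufaf4 rose by 0.45 ± 0.08 (adjusted p = 0.00055). None of these 4 overlapped the controls, and all 4 kept their calls without each replicate in turn.

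**Figure D3:**
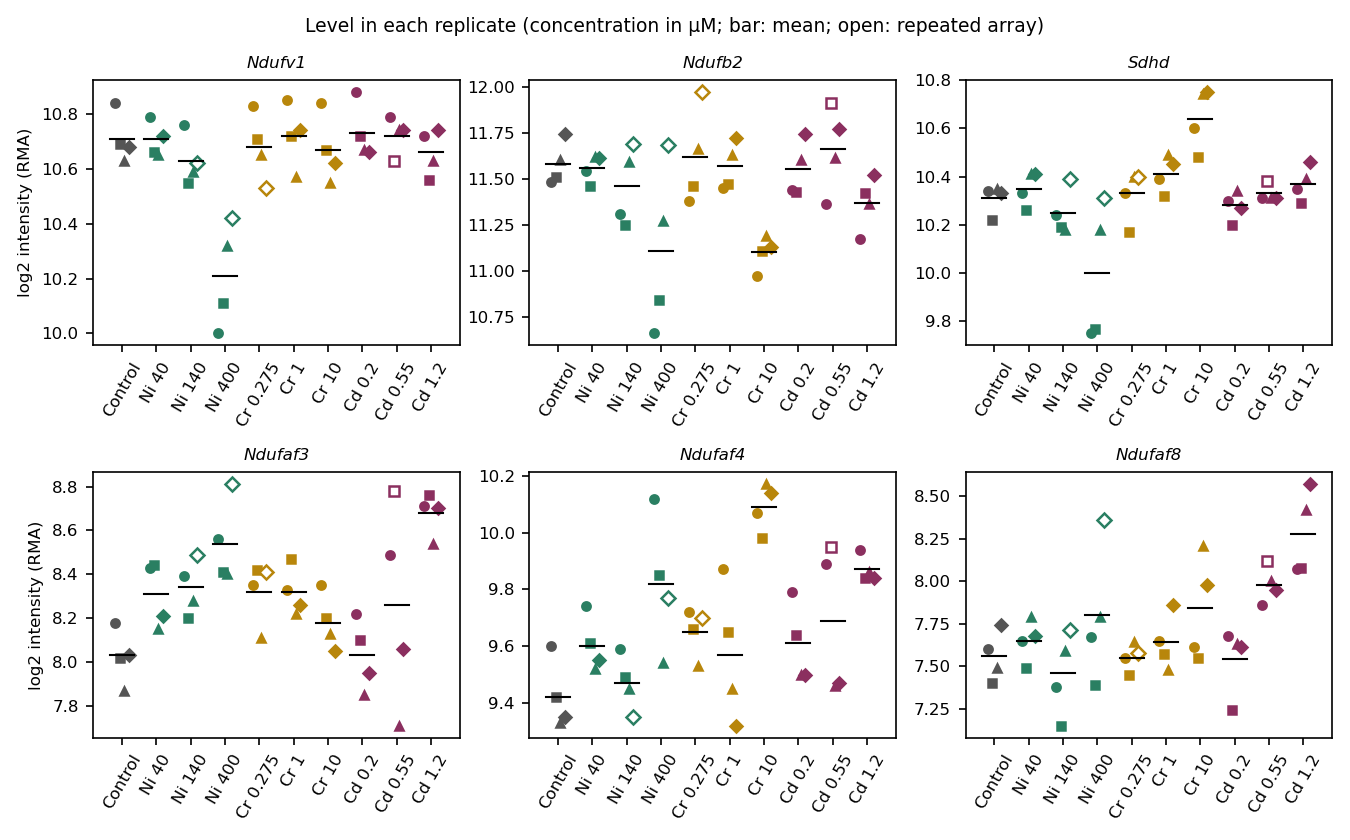
Log2 intensity (vertical axis) of 6 members in each replicate of the controls and the 9 exposures (horizontal axis, µM), with the group mean as a bar, controls as the mean of 2 arrays and open symbols for the repeated arrays. Ndufv1 is lowest at 400 µM nickel (10.00 to 10.42), Sdhd is low there and high at 10 µM chromium (10.48 to 10.75), and Ndufaf8 is highest at 1.2 µM cadmium (8.07 to 8.57).

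Among complex I subunits at 1.2 µM cadmium, 7 probe sets were higher and 2 lower of 36, smaller shares than among all probe sets (23.8% and 14%). Without the repeated arrays 14 were higher and 5 lower of 36, against 31.1% and 19.9% of all probe sets. The share of rises was then no longer the smaller. Ndufa5 was at 8.42, 8.27, 8.49 and 8.48 against 7.89 to 7.98 in controls, without overlap, and rose by 0.50 ± 0.06 (adjusted p = 5.4e-05). Ndufb3 (0.37) and Ndufb7 (0.32) also rose. Ndufab1, the mitochondrial acyl carrier protein, rose by 0.21 ± 0.05 (adjusted p = 0.0046). Ndufb2 (-0.22 ± 0.08, adjusted p = 0.045) and Ndufa1 (-0.19 ± 0.07, adjusted p = 0.037) were the lower ones, and both calls were lost without replicate 1, 3 or 4 (adjusted p = 0.15 to 0.18 and 0.14 to 0.21).

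Beyond complex I, Cox5b was at 12.34, 12.32, 12.36 and 12.47 at 1.2 µM cadmium, above every control, and rose by 0.31 ± 0.05 (adjusted p = 0.00049). Atp5f1d, a central stalk subunit, rose by 0.38 ± 0.08 (adjusted p = 0.0028), and Atp5if1, the inhibitor of the ATP synthase, by 0.29 ± 0.08 (adjusted p = 0.011). The Atp5if1 call was lost without replicate 3 (adjusted p = 0.12) or 4 (0.063). Sdha was at 9.95, 10.01, 9.97 and 9.96, below every control (10.14 to 10.36), at -0.26 ± 0.06 (adjusted p = 0.0044). Atp5f1b was slightly lower (-0.16 ± 0.05, adjusted p = 0.031), a call lost without replicate 1 (adjusted p = 0.072), 3 (0.18) or 4 (0.15). Cox6c-ps1, annotated as a pseudogene and open to cross-hybridisation by Cox6c transcripts, was lower (-0.32 ± 0.10, adjusted p = 0.026), a call lost without replicate 1 (adjusted p = 0.059) or 3 (0.13).

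At 0.55 µM cadmium 4 of 85 members were called, against a background of 10.7%. Ndufaf8 (0.43), Ndufaf1 (0.39) and Ndufaf4 (0.27) were higher and Cox6c-ps1 lower (-0.40). Leaving out the repeated array gave changes of 0.31, 0.27, 0.18 and -0.28 and again 4 calls (background 11.1%), with Ndufaf4 no longer among them (adjusted p = 0.071). Without replicates 1, 2, 3 and 4 the counts were 0, 1, 0 and 2 (background 3.97%, 7.32%, 0.612% and 5.23%). At 0.2 µM, 0 members were called (background 0.477%), with 4 at an unadjusted p under 0.05 (background 9.75%).

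The metals were compared directly at their high concentrations in a joint fit of all arrays. Between 400 µM nickel and 10 µM chromium, 43 members differed, 2 higher and 41 lower in nickel (background 44.7%, 23% higher and 21.8% lower). Between nickel and 1.2 µM cadmium, 56 differed, 3 higher and 53 lower in nickel (background 45%, 20.3% higher and 24.8% lower). Between chromium and cadmium, 22 differed, 5 higher and 17 lower in chromium (background 43.5%, 19.2% higher and 24.3% lower). Without the repeated arrays the first 2 counts were 64 and 73, with 62 and 71 lower in nickel (background 54.3% and 54.6%), and the last was 39, 13 higher and 26 lower (background 54.2%). Without replicate 1 the 3 counts were 28, 34 and 15, and without replicate 3 the first was 28. The shares of all probe sets were not counted in these fits.

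Sdhd differed most between nickel and chromium, with means of 10.00 and 10.64 and a difference of -0.64 (95% interval -0.78 to -0.50, adjusted p = 4.5e-09). Cyc1 was at -0.56 against chromium and -0.57 against cadmium. The largest differences between nickel and cadmium were those of Ndufa2 and Atp5f1d (both -0.59). The 2 members higher in nickel than in chromium were Cox7a2l (0.24) and Ndufaf3 (0.36). Higher in nickel than in cadmium were Cox7a2l (0.21), Uqcrh (0.21) and the dimmer probe set of Ndufv3 (0.29). Sdha was higher under chromium than under cadmium by 0.33 (interval 0.18 to 0.49).

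The 3 metals share the same control arrays, so their values are given side by side. Ndufaf4 was higher in all 3, by 0.40, 0.67 and 0.45 at the high concentrations of nickel, chromium and cadmium. Ndufa5 was also higher in all 3 (0.24, 0.40 and 0.50), and Ndufb2 lower in all 3 (-0.47, -0.48 and -0.22). Of these members, Ndufaf4 alone kept its calls in all 3 metals when each replicate was left out in turn. Ndufa5 lost its call in some of these fits under nickel and chromium, and Ndufb2 under nickel and cadmium. Sdhd was lower under nickel and higher under chromium, while Ndufb9, Cox5b and Atp5f1d were lower under nickel and higher under cadmium. The nickel calls of Ndufb9, Cox5b and Atp5f1d were each lost without replicate 1, 2 or 3, and that of Sdhd without replicate 1 or 2. Ndufb9 also lost its cadmium call without replicate 1, 3 or 4. In no metal was a change called for 30 of the 85 probe sets. Overlaps between metals were not counted over all probe sets, so these counts have no background beside them.

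Other lists of mitochondrial genes were read in the same fits. Their counts stand against 23.4% higher and 16.7% lower of all probe sets under nickel, 23% and 19.5% under chromium and 23.8% and 14% under cadmium, or 26% and 20.7%, 28% and 23.8%, and 31.1% and 19.9% without the repeated arrays. Many of the counts lay near these shares. Of 27 tested assembly factors of complexes II to V, 13 were higher and 0 lower at 1.2 µM cadmium (median 0.23), 8 and 3 at 10 µM chromium and 5 and 2 at 400 µM nickel. Without the repeated arrays the nickel count was 5 higher and 6 lower, the chromium count 9 and 4, and the cadmium count 17 and 1. Bcs1l, which inserts the Rieske protein into complex III, rose under all 3, by 1.06 ± 0.10, 0.89 ± 0.12 and 1.06 ± 0.20. Ttc19, which also acts on complex III, rose by 0.44 under nickel and 0.46 under cadmium and was at 0.07 under chromium. Sco1, a copper chaperone of complex IV, rose by 0.63 under chromium and 0.50 under cadmium and was at 0.13 under nickel. Of 11 genes of iron-sulfur cluster assembly, 5 were higher and 1 lower under cadmium, 4 and 1 under nickel and 1 and 3 under chromium, and without the repeated arrays the counts were 7 and 3 under cadmium, 3 and 4 under nickel and 2 and 4 under chromium. Of 7 further complex I assembly factors, 3 were higher under cadmium and 0 lower, with 1 and 1 under nickel (1 and 3 without the repeated arrays) and 1 and 2 under chromium.

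Of 12 regulators of mitochondrial transcription, 9 were higher and 0 lower under chromium, with a median of 0.33, and the same counts were found without the repeated arrays. Tfb1m (0.07), Esrra (-0.01) and Gabpa (-0.02) were not called. Pprc1, a coactivator of nuclear respiratory factors, rose by 0.79 ± 0.07, Ppargc1b by 0.51 ± 0.13, and Tfam, which packages mitochondrial DNA and starts its transcription, by 0.41 ± 0.06. Nickel gave 5 higher and 1 lower and cadmium 2 and 1, or 5 and 2 and 3 and 1 without the repeated arrays. With all arrays, the lower one in both was Gabpa, the DNA-binding subunit of GABP (-0.26 in each).

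Genes of the tricarboxylic acid cycle had 0 higher and 4 lower of 12 under nickel, 2 and 4 under chromium and 3 and 1 under cadmium, or 1 and 6, 3 and 4, and 4 and 3 without the repeated arrays. Genes of ubiquinone synthesis and cytochrome c had 1 higher and 1 lower of 9 under nickel, 3 and 2 under chromium and 3 and 0 under cadmium, or 0 and 2, 3 and 3, and 3 and 0 without the repeated arrays. Of 6 nucleotide and phosphate carriers and porins, 1 was higher and 3 lower under nickel, 0 and 1 under chromium and 0 and 0 under cadmium, or 1 and 4, 2 and 1, and 0 and 2 without the repeated arrays. The hypoxia-linked mitochondrial genes had 6 higher and 0 lower of 7 under nickel (median 1.21), 0 and 3 under chromium and 1 and 1 under cadmium, or 6 and 0, 0 and 3, and 2 and 1 without the repeated arrays. Under nickel, Pdk1, which limits pyruvate entry to the mitochondria, rose by 1.89 ± 0.11, Higd1a by 1.68 ± 0.11 and Bnip3, a mitophagy receptor, by 1.41 ± 0.11. Bnip3 fell by 0.61 on the log2 scale under chromium and by 0.44 under cadmium.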

How the data were processed

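The authors hybridised RNA to 44 Affymetrix rat genome arrays and deposited log2 values made by RMA in Partek. Members and gene lists were chosen with earlier results of these data known. Here, 15521 of 31099 probe sets with a mean log2 of at least 5.9602 (the median) were tested with limma 3.58.1 in R 4.3.3, 1 fit per metal with 16 values and 9 residual degrees of freedom, the 2 controls of a replicate averaged, replicate number as a block (the methods fit concentration and batch), and Benjamini-Hochberg adjustment over all probe sets tested. The metals were compared in 1 joint fit. A probe set was called at an adjusted p under 0.05. Of the non-control probe sets, 20826 name 1 gene, 436 several and 9780 none, and 7 that name several genes of these families were left out. Genes with more than 1 probe set (9) were read separately.

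Named members were the 4 largest called rises and falls per metal, complex II, Cyc1, the paralog pairs and listed core subunits. Others, among them Atp5mc3, were named after their values were seen. The 4 replicates are biological by the labels, and p-values measure the spread between arrays, whose number limits precision. Alternatives were no replicate block, 8 separate controls, a variance trend, other filters, centring, conditions as labelled, no repeated arrays, and each replicate left out. The procedure was tested on simulated data. Same-numbered arrays deviated together, with a median correlation of 0.506 (169 of 180 pairs above 0.1), against -0.28 for different numbers.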

Additional observations from a re-analysis of the deposited data

Results flagged for a closer look

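Over 16 members and 160 groups of 4 samples, 6 values stood far from the other 3 of their group, where chance gives about 1 in 20. The number after each value is the gap to the nearest sample over the range of the group. Cyc1 at 0.275 µM chromium was 11.60 in replicate 4 against a median of 11.16 in the others (0.891), and Sdhd at 0.55 µM cadmium was 10.38 in replicate 2 against 10.31 (0.967). Ndufa6 at 0.275 µM chromium was 10.61 in replicate 4 against 10.89 (0.831). These 3 are repeated arrays. Ndufa5 was 7.98 in control replicate 4 against 7.89 (0.8292) and 7.90 in replicate 3 of 400 µM nickel against 8.24 (0.886). Cox5b was 12.15 in replicate 4 of 40 µM nickel against 12.09 (0.928).

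Metals at their high concentrations differed by the test of the difference for 43 members between nickel and chromium, 56 between nickel and cadmium and 22 between chromium and cadmium, of 85 tested. The shares of all probe sets were 44.7%, 45% and 43.5%.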

How the results depend on the processing

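The counts of members called depended on the processing, and the shares of all probe sets moved with many of them. With conditions as labelled, the calls at 400 µM nickel (36), 10 µM chromium (19), 0.55 µM cadmium (4) and 1.2 µM cadmium (21) were 0 each. The shares of all probe sets were then 0%, 0%, 0.00644% and 0%, so the lack of calls was not particular to the members. The differences between metals were 14 (nickel and chromium), 12 (nickel and cadmium) and 0 (chromium and cadmium). Ndufa5 and Ndufb2 at 1.2 µM cadmium turned to -0.01 and 0.02. Without the replicate block, the calls were 16 at 400 µM nickel (24.2% of all probe sets) and 10 at 10 µM chromium (30.5%). They were 0 at 0.55 µM cadmium (1.51%) and 12 at 1.2 µM (24.1%), and 11 between chromium and cadmium. With 8 separate controls the calls were 3 at 140 µM nickel (10.4% of all probe sets) and 1 each at 0.275 and 1 µM chromium (0.49% and 0.586%). They were 29 at 10 µM chromium (51.8%), and 12 and 32 at 0.55 and 1.2 µM cadmium (23.9% and 47.5%). A variance trend gave 1 at 140 µM nickel (3.36%), and the stricter filter on level (a mean of at least 7.89) gave 2 at 0.55 µM cadmium (14%). Without the repeated arrays there were 65 at 400 µM nickel (46.7%), 42 at 1.2 µM cadmium (51%) and 39 between chromium and cadmium (54.2%). Replicates 1 and 2 alone gave 65 at 400 µM nickel (48.7%). Leaving out 1 replicate gave 11 to 60 at 400 µM nickel (23.5% to 42.4% of all probe sets) and 12 to 22 at 10 µM chromium (29.6% to 43.5%). It gave 0 to 2 at 0.55 µM cadmium (0.612% to 7.32%) and 12 to 36 at 1.2 µM (21.9% to 45.7%). The differences in the order above were 28 to 55, 34 to 64 and 15 to 18. Shares of all probe sets were not counted for differences in these settings, except without the repeated arrays. The cause of these shifts was not tested. With 4 arrays a group, small changes and dim probe sets are the least well resolved.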

Other observations

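The 7 probe sets that name several genes, at least 1 of them of these families, were left out of the members. Apart from the probe set shared by Cox5a and another gene, they carry no gene name here. They gave 0 higher and 2 lower at 400 µM nickel (both -0.33), 0 higher and 1 lower at 10 µM chromium (-0.23), and 2 higher (0.17 and 0.15) and 1 lower (-0.18) at 1.2 µM cadmium. The shares of all probe sets were 23.4% higher and 16.7% lower, 23% and 19.5%, and 23.8% and 14%.

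Below the filter, Cox6a2, the heart and muscle isoform of a complex IV subunit, was at 0.22 ± 0.07 under 400 µM nickel (adjusted p = 0.034 in a fit without the filter), and Cox7a1, another muscle isoform, at 0.23 ± 0.06 under 1.2 µM cadmium (adjusted p = 0.011).

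Outside the chain, Ogdh, a subunit of the oxoglutarate dehydrogenase of the tricarboxylic acid cycle, fell by 0.97 on the log2 scale at 400 µM nickel (adjusted p = 6.5e-07), and Vdac1, a porin of the outer membrane, rose by 0.77 ± 0.07 there. Nubpl, which delivers iron-sulfur clusters to complex I, fell by 0.89 on the log2 scale under 10 µM chromium (adjusted p = 1.8e-05). Iscu, the scaffold of cluster assembly, fell by 0.41 under nickel, and Bola3 rose by 0.51 ± 0.10 under cadmium.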
